A study of Mus musculus with 4 samples.

Results

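The genes of mouse chromosome 18 were followed here as a block, to see how far their RNA levels differed between 2 cell lines and how evenly that difference ran along the chromosome. The members were selected on position and on measured counts, as all rows of the 4 deposited gene tables that lie on chromosome 18 and hold at least 20 counts summed over the 4 libraries: 417 of the 571 rows on the chromosome, out of 23358 rows in all. Of the other rows on the chromosome, 80 held no count and 74 held 2 to 18 counts. The chromosome itself was chosen by its fold changes between the lines, which were already known, so its median shift is given as a description, with no test, and supports nothing by itself.

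The submitters describe both lines as progenitors of interstitial cells of Cajal, which set the rhythm of gut contractions, and both come from the muscle coat of the mouse stomach. The 2xSCS2F10 line derives from the C57BL/6J strain and its cultures were kept at 37 °C in NeuroCult neural stem cell proliferation medium with 5% chick embryo extract. The 2xSCS70 line derives from H-2Kb-tsA58 mice, whose transgene is a thermolabile form of the SV40 large T antigen driven by an interferon-inducible promoter, and was grown in the same medium at 39.5 °C without interferon-gamma, with no chick embryo extract named. Each line is a single line with 2 libraries, so line, mouse strain, transgene, temperature and medium cannot be told apart in any difference below. The list may not be complete, since the lines also differed on the sex chromosomes. The median log2 fold change was 5.72 over 7 tested genes of Y and 0.70 over 458 of X. Below 0 lay 14.3% and 25.5% of them. The part of this in the differences below was not tested. The labels do not say that the 2 libraries of a line came from separate cultures, so p-values measure only how much these libraries vary, and that variation may be technical. All fold changes are given as 2xSCS70 relative to 2xSCS2F10.

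Chromosome 18 of the mouse carries genes of many unrelated roles. Among them are the clustered protocadherins, cell-surface proteins whose many variants share constant exons, and the desmosomal cadherins of epithelia. It also holds Smad2, Smad4 and Smad7, which carry or restrain TGF-beta signals, the neighbouring receptor kinase genes Pdgfrb and Csf1r, the transcription factor gene Gata6, and matrix genes such as Lox and Fbn2. Housekeeping genes for ribosomes, mitochondria and transport lie scattered between them. The members are described below first as a whole chromosome, then window by window, and then by these roles.

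Gene rows summed to 40319972 and 45098902 counts in the 2xSCS2F10 libraries and to 48971264 and 44737008 in those of 2xSCS70. Every value was even, so each sequenced fragment added 2 counts. The marker Kit of interstitial cells of Cajal had 0 counts in 3 libraries and 2 counts in the fourth. Another marker of these cells, Ano1, stood at 29.8 and 18.4 CPM (counts scaled to a common library size) in 2xSCS2F10 against 2.29 and 2.55 in 2xSCS70, while the third, Etv1, stood at 0.0514 and 0.367 against 0.544 and 0.781. Mesothelial markers (Msln, Upk3b and Wt1) summed to 1700 and 1739 CPM in 2xSCS2F10 against 26.5 and 22.3 in 2xSCS70. Smooth muscle markers (Actg2, Cnn1, Myh11 and Des) summed to 343 and 578 against 9.03 and 8.51. Of these, Des did not follow the sum: it overlapped between the lines, at 2.98 and 5.67 CPM against 4.17 and 3.53. The part of all these markers in the differences on chromosome 18 was not tested. Of the markers of other cells, Epcam, Emr1 and Elavl4 were at 0 in every library.

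RNA from chromosome 18 made up a smaller share of each 2xSCS70 library. The rows of the chromosome took 2.27% and 2.29% of autosomal counts in the 2xSCS2F10 libraries and 1.86% and 1.88% in the 2xSCS70 libraries, leaving out the ribosomal RNA row Rn45s. The shares did not overlap between the lines, and the libraries of a line lay close together. Over the 395 members that could be tested, the median log2 fold change was -0.46, a 1.37-fold lower level, with an interquartile range from -0.92 to 0.05. Over the 13636 tested genes of the other autosomes the median was 0.02, so chromosome 18 lay -0.48 below them, 1.39-fold. The same difference of medians was -0.47, -0.40, -0.51 and -0.47 in the 4 pairs of one library from each line, with an SD of 0.045 over pairs that share libraries. Between the libraries of a single line it was 0.059 in 2xSCS2F10 and 0.032 in 2xSCS70.

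No other autosome had a median as low. The medians of the other 18 autosomes ran from -0.35 on chromosome 6 to 0.37 on chromosome 12, and 8 of them lay below 0. A log2 fold change below 0 was found for 72.9% of tested members, against 49.0% of tested genes on the other autosomes, where single chromosomes ranged from 29.1% to 66.3%. Chromosome medians between the libraries of a line stayed between -0.097 and 0.075 on the other autosomes, a narrower range than that between the lines. Chromosome 18 was the low end of a spread of autosome medians in which chromosomes 1 (0.31), 7 (0.27) and 12 (0.37) lay on the other side.

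**Figure D1:**
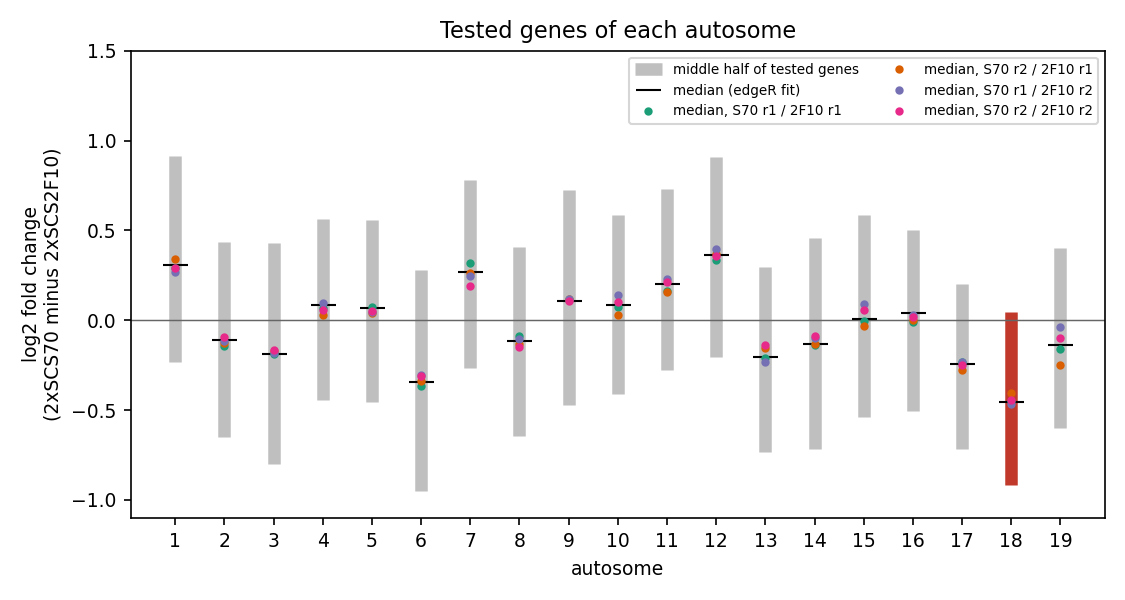
Each autosome on the x axis carries the log2 fold change of its tested genes on the y axis (2xSCS70 minus 2xSCS2F10). Bars span the interquartile range, black dashes mark the median of the edgeR fit and coloured dots the medians of the 4 library pairs. The red bar of chromosome 18 has the lowest median, -0.46, and its 4 pair medians lie close together.

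The whole distribution of members was moved, not only its lower tail. At a log2 fold change of -0.5 or below stood 46.8% of tested members and 26.5% of tested genes on the other autosomes. The shares at or below 0.5 were 86.3% and 72.4%, and at or below -1 they were 22.8% and 14.9%. The chromosome was about as tight around its own median as other autosomes were around theirs: its interquartile range was 0.967, within the span of 0.917 to 1.23 over the other autosomes. Within 0.5 of the median lay 49.9% of tested members, where the other autosomes had 42.5% to 52.5%.

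**Figure D2:**
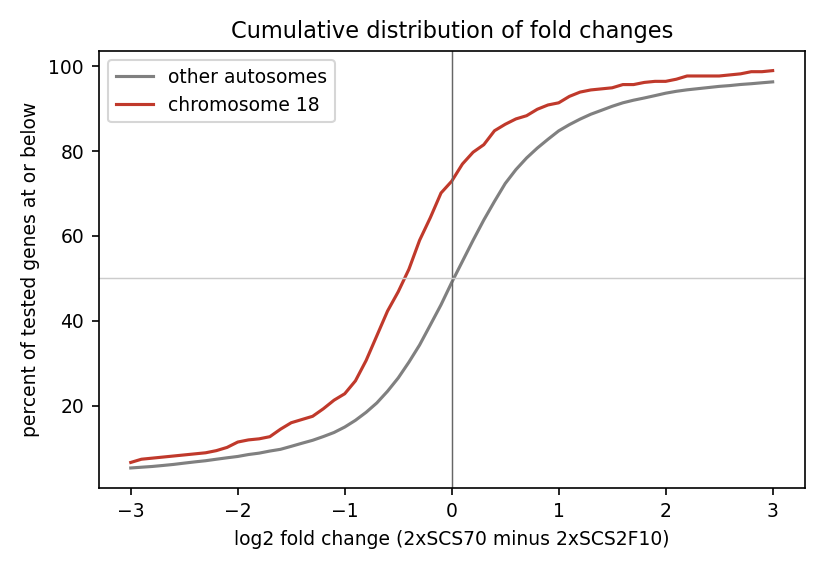
The y axis gives the percent of tested genes whose log2 fold change lies at or below the value on the x axis. The curve of chromosome 18 (395 members) lies to the left of that of the other autosomes (13636 genes), reaching 72.9% at 0 where the other reaches 49.0%.

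The tested genes of the autosomes were split into 3 equal classes of mean CPM. The difference between chromosome 18 and the other autosomes was -0.66 in the low class, -0.45 in the middle class and -0.38 in the high class. In 3 classes of coding length it was -0.38, -0.56 and -0.44 from short to long. Chromosome 18 was lower in each of these classes. The 233 tested members with a mean of at least 10 CPM had a median of -0.47 and an interquartile range of 0.674. Some rows overlap another row, and the kit did not mark the strand, so reads there cannot be assigned to one gene. The 273 tested members that overlap no other row had a median of -0.44, and the 357 outside the protocadherin clusters had -0.45.

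Along the chromosome the difference was present from end to end. The members run from Crem, whose row starts at position 3266354 of the mm10 build, to Tmx3, whose row ends at position 90543267. In 10 Mb windows, the 9 windows with at least 5 tested members had median log2 fold changes of -0.48, -0.42, -0.46, -0.48, -0.43, -0.72, -0.37, -0.31 and -0.36 in order. All 9 were below 0 in each of the 4 library pairs too, with pair values from -0.93 to -0.24. The lowest, between 50 and 60 Mb, held 24 tested members and no member called higher. The window between 30 and 40 Mb was by far the fullest, with 131 tested members, and holds the protocadherin clusters.

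In 10 Mb windows, medians varied less here than on any other autosome, a comparison not made at another window size. Their SD over the 9 windows was 0.118, against 0.135 (chromosome 13) to 0.510 on the other 18 autosomes, with a median of 0.230 there. On the other autosomes 131 of 243 windows lay below 0, which is 53.9%, and 44 of them, 18.1%, lay at or below the highest window of chromosome 18. One other autosome, chromosome 13, had all its windows below 0. In 5 Mb windows, all 15 with at least 5 tested members lay below 0, from -1.01 to -0.22. A pair of sparse stretches stood above 0: 4 tested members between 25 and 30 Mb had a median of 0.81, and 2 between 85 and 90 Mb had 0.16.

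**Figure D3:**
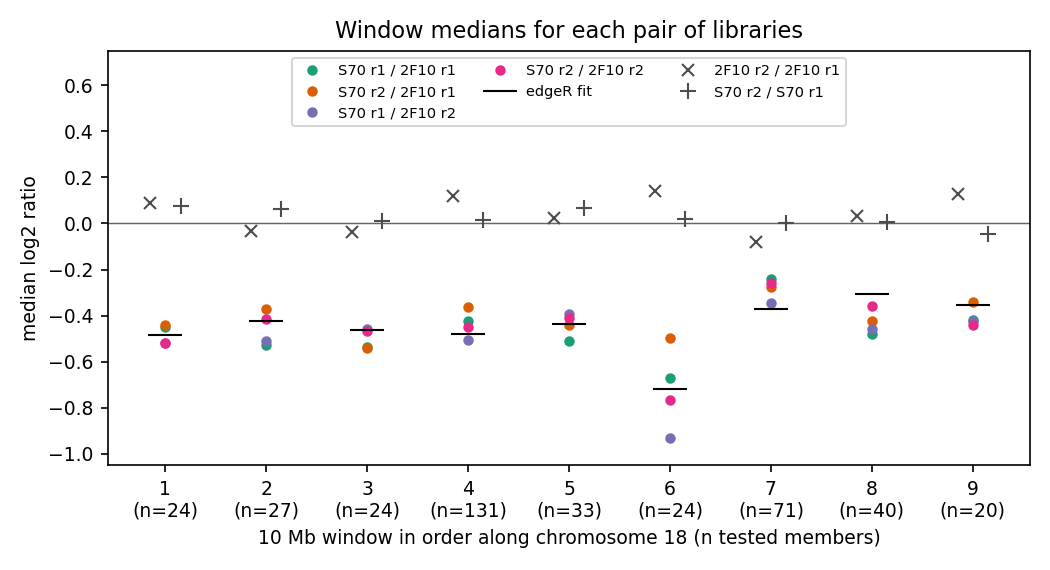
Median log2 ratio (y axis) in each 10 Mb window in order along the chromosome (x axis, with the number of tested members). Dashes are the edgeR fit, dots the 4 pairs of libraries from different lines, and crosses and plus signs the ratios between libraries of one line. The medians between lines lie between -0.93 and -0.24, while the medians within a line stay near 0.

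A running median over 31 neighbouring tested members was below 0 at 358 of 365 places and above 0 at 7, from Ndst1 to Pdgfrb. This exception was picked out after its values were seen. The 31 members around its peak, from Slc12a2 to 1500015A07Rik, had a median of 0.23, and 18 of them lay above 0. The 15 of them with a mean of at least 10 CPM had a median of -0.24. Well-expressed members of the same stretch went both ways, with Rps14 and Synpo lower and Pdgfrb higher.

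**Figure D4:**
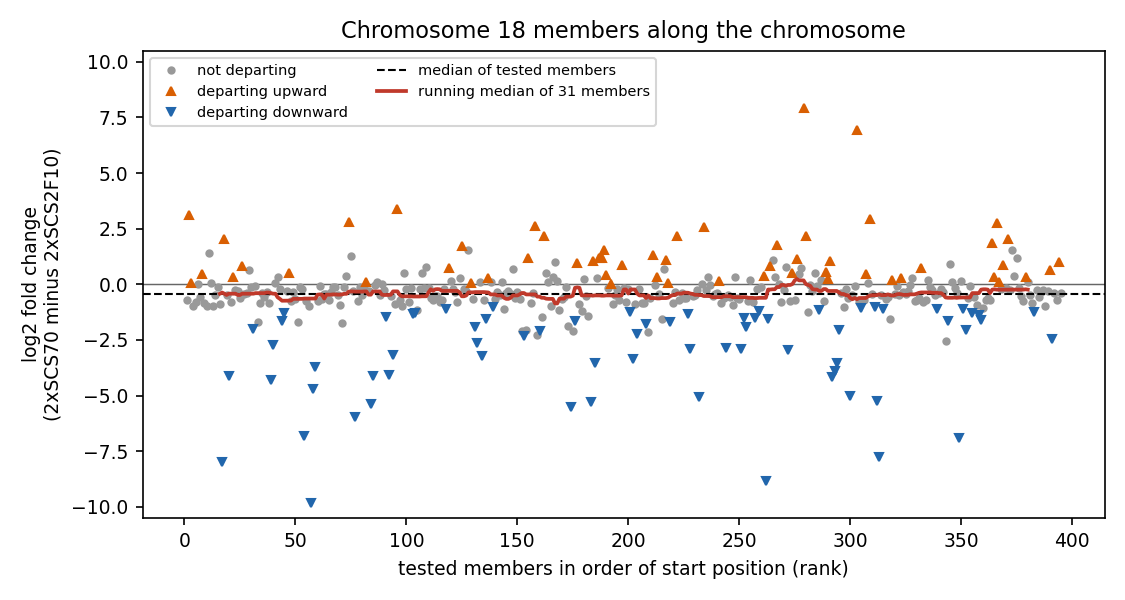
Log2 fold change (y axis, 2xSCS70 minus 2xSCS2F10) of the 395 tested members in the order of their starts (x axis). Triangles mark the 57 members departing upward and the 69 departing downward from the chromosome median (dashed line at -0.46), and the red running median of 31 members stays below 0 apart from 7 places.

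Counted gene by gene with the edgeR quasi-likelihood test and a Benjamini-Hochberg adjustment over all 14496 tested genes, at an adjusted p under 0.05, 150 of the 395 tested members were lower in 2xSCS70 and 26 were higher. Over all tested genes 21.8% were called lower and 18.8% higher. On the chromosome the shares were 38.0% and 6.58%, and the choice of the chromosome used this same contrast. Single other autosomes ranged from 13.9% to 36.5% lower and from 8.89% to 31.6% higher. Chromosome 6 came near chromosome 18, with 36.5% lower and 10.2% higher. The calls of at least 2-fold were 79 lower and 22 higher. Both libraries of 2xSCS70 lay below both libraries of 2xSCS2F10 for 232 tested members, 58.7%, and above them for 66, 16.7%. Over all tested genes these shares were 37.5% and 39.9%, and on chromosome 6 they were 54.6% and 23.9%. The calls depended on the library left out. Without either 2xSCS70 library far fewer were made, and without either 2xSCS2F10 library more, on the chromosome and over all tested genes alike. With 1 library left in a line, the spread is taken from the other line's libraries alone, so this is not particular to chromosome 18. On log2(RPKM + 1) values (RPKM, a level scaled to gene length and library depth) limma called 79 lower and 31 higher.

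A second test asked which members differed from the shift of their own chromosome and not from 0. It used the same model with the median log2 fold change of each gene's chromosome as the null value. Of the 395 tested members, 57 departed upward, 69 departed downward and 269, or 68.1%, did not pass. Over all tested genes, each against its own chromosome, 15.8% departed upward and 20.8% downward; the members' shares were 14.4% and 17.5%. The other autosomes ranged from 12.2% to 19.98% upward and from 17.8% to 23.6% downward. Of the 150 members called lower, 81 did not depart from the chromosome median. Of the 57 upward departures, 26 were called higher than 0 and 31 were not called against 0. Without 2xSCS70 replicate 1 the departures were 4 upward and 17 downward, and without its replicate 2, 5 and 15. Without 2xSCS2F10 replicate 1 they were 107 and 128, and without its replicate 2, 105 and 108. The median over the 269 members that did not depart was -0.42.

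Housekeeping members lay close to the chromosome median. A list of 24 broadly expressed core genes of the chromosome covered ribosome, mitochondrion, splicing and transport functions. All 24 were tested, and 13 fell and none rose. Of all tested genes 21.8% were called lower and 18.8% higher, and of tested members 38.0% and 6.58%. The median of the list was -0.47, against 0.02 for all tested genes, and 22 of the 24 had a log2 fold change below 0. Hspa9, the mitochondrial chaperone mortalin, stood at 806 and 716 CPM in 2xSCS2F10 and 433 and 436 in 2xSCS70. The groups were well apart, and the log2 fold change was -0.81 (SE 0.13, adjusted p = 0.0100). Kif5b, the heavy chain of the transport motor kinesin-1, had 437 and 470 CPM against 320 and 330, a log2 fold change of -0.48 (SE 0.12, adjusted p = 0.0306). Its groups did not overlap, and it lay nearly on the chromosome median.

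Matr3, a nuclear matrix protein that binds RNA, had 330 and 309 CPM against 232 and 266 and did not pass (adjusted p = 0.0798). Atp5a1, the alpha subunit of ATP synthase, had 484 and 435 against 418 and 399, again with no overlap, and did not pass either (adjusted p = 0.328). Lman1, a cargo receptor between endoplasmic reticulum and Golgi, departed downward (244 and 303 against 134 and 132 CPM, departure adjusted p = 0.0345). Tubb6, a beta-tubulin, departed upward: its 213 and 172 CPM in 2xSCS2F10 overlapped with 237 and 202 in 2xSCS70. Hdac3, a histone deacetylase, had 67.3 and 58.6 against 66.0 and 60.7 CPM, also overlapping, and departed upward with an adjusted p of 0.0495. None of the 24 was called lower without either library of 2xSCS70, 18 and 21 were without replicate 1 or 2 of 2xSCS2F10, 9 with a replicate block, and 2 on log2(RPKM + 1). The list's median stayed between -0.50 and -0.38 in the count-based alternatives and was -0.22 on log2(RPKM + 1).

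The most abundant members of each window were mostly called lower. Since the chromosome was chosen by these fold changes, their direction adds no support. The shares called lower and higher were 38.0% and 6.58% over tested members, and 21.8% and 18.8% over all tested genes. These shares are not matched for level. In the high class of mean CPM, 56.9% of genes on the other autosomes lay below 0. The 2 members with the highest mean RPKM of each 10 Mb window made 19 genes, since the last window holds Tmx3 alone. They included 14 called lower and none called higher. From the start of the chromosome they were Kif5b and Rab18, then Snrpd1 and Cdh2, Elp2 and Galnt1, Hspa9 and Ctnna1, Lars and Eif1a, Lox and Ppic, Rps14 and Csnk1a1, Rpl17 and Atp5a1, Cyb5 and Txnl4a, and Tmx3. All but Cyb5, Eif1a and Csnk1a1 had no departure from the chromosome median that passed.

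Ribosomal protein genes Rps14 and Rpl17 fell alike, with log2 fold changes of -0.71 and -0.61. Rps14 had 374 and 326 CPM in 2xSCS2F10 against 213 and 217, and Rpl17 had 348 and 289 against 209 and 208; the groups did not overlap for either. Rpl17 overlaps the row of Snord58b. Ctnna1, the alpha-catenin that links cadherins to actin, had 581 and 593 CPM against 367 and 358, a log2 fold change of -0.70 (SE 0.12, adjusted p = 0.0107). Its row overlaps that of Lrrtm2. Elp2, a subunit of the Elongator complex that modifies transfer RNA, had 97.3 and 97.2 against 70.7 and 70.2 CPM, a log2 fold change of -0.47, on the chromosome median.

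Cyb5 (now Cyb5a), the membrane cytochrome b5 that passes electrons to lipid enzymes, departed most among these genes. Its row lies at chr18:84851414-84879863. It stood at 245 and 205 CPM in 2xSCS2F10 and 40.1 and 41.6 in 2xSCS70, far apart, a log2 fold change of -2.46 (SE 0.14, adjusted p = 0.000735). Eif1a, a translation initiation factor, fell by 1.34 (189 and 198 against 75.5 and 77.1 CPM), but it has a near-identical copy on chromosome X and its counts are uncertain. Csnk1a1, the casein kinase 1 that marks beta-catenin for destruction, fell by 1.16 from 335 and 449 to 173 and 179 CPM.

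Snrpd1, Cdh2, Lox, Atp5a1 and Tmx3 did not pass the test against 0. Cdh2, which encodes N-cadherin, had 340 and 226 against 190 and 170 CPM (log2 fold change -0.65, SE 0.22, adjusted p = 0.0696); it passed with a replicate block, with DESeq2 and without either library of 2xSCS2F10. Only 1 of the 14 calls in this set held without 2xSCS70 replicate 1 and only 1 without its replicate 2, that of Cyb5 both times; 5 held on log2(RPKM + 1).

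The 10 largest downward departures were many times the shift of the chromosome. Among members with a mean of at least 10 CPM, past the departure test and with no overlap between the lines, 38 lay below and 23 above; the 10 with the largest departures each way are described. Asxl3, a Polycomb-related chromatin factor at chr18:22345089-22530227, had 20.7 and 19.7 CPM in 2xSCS2F10, where 777 fragments were counted, and a single fragment in the 2xSCS70 libraries. The ratio was 1047, with an exact 95% interval of 187 to 41398 that covers counting error only. It was the lowest of these members in 2xSCS70.

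Fbn2 encodes fibrillin-2, a microfibril protein of elastic tissue, and lies at chr18:58008623-58209926. It stood at 129 and 117 CPM in 2xSCS2F10 and 0.363 and 0.164 in 2xSCS70, so a matrix gene abundant in one line was close to 0 in the other. The log2 fold change was -8.83 (SE 0.34, adjusted p = 0.000407). Lims2, an adaptor at integrin attachment sites, had 16.5 and 31.3 CPM against 0.798 and 0.329, a log2 fold change of -5.39, and its row overlaps that of Gpr17. Fam38b (now Piezo2), a mechanically gated cation channel at chr18:63010213-63387183, had 23.2 and 27.2 CPM against 0.943 and 0.575, a log2 fold change of -5.04.

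Fzd8 encodes a Frizzled receptor for Wnt ligands. It had 26.4 and 23.0 CPM in 2xSCS2F10 and 1.34 and 1.52 in 2xSCS70, a log2 fold change of -4.11. Dtna, alpha-dystrobrevin of the dystrophin complex, had 40.4 and 40.2 against 3.52 and 2.67 CPM, a log2 fold change of -3.70. They were 17.2 and 13.0 times lower in 2xSCS70, and the libraries of a line agreed closely. Sh3tc2, an endosomal protein needed by Schwann cells for myelin, fell from 116 and 96.6 to 9.29 and 9.29 CPM. The calcium-dependent kinase gene Camk4 had 42.2 and 51.3 CPM against 4.75 and 5.59, a log2 fold change of -3.18.

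Synpo, the actin-binding synaptopodin, was the most abundant of the 10 but varied between libraries of 2xSCS2F10. It had 218 and 428 CPM there and 45.3 and 38.8 in 2xSCS70, a log2 fold change of -2.94 (SE 0.36, adjusted p = 0.00445). Zfp608, a zinc finger protein gene, had 68.5 and 65.7 CPM against 8.27 and 9.37, a log2 fold change of -2.93. Of the 10 departures, that of Synpo ended without replicate 1 of 2xSCS70 (departure adjusted p = 0.0906) and those of Synpo (0.101) and Lims2 (0.05003, just above the threshold) without replicate 2; the 10 passed in every other setting run.

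**Figure D5:**
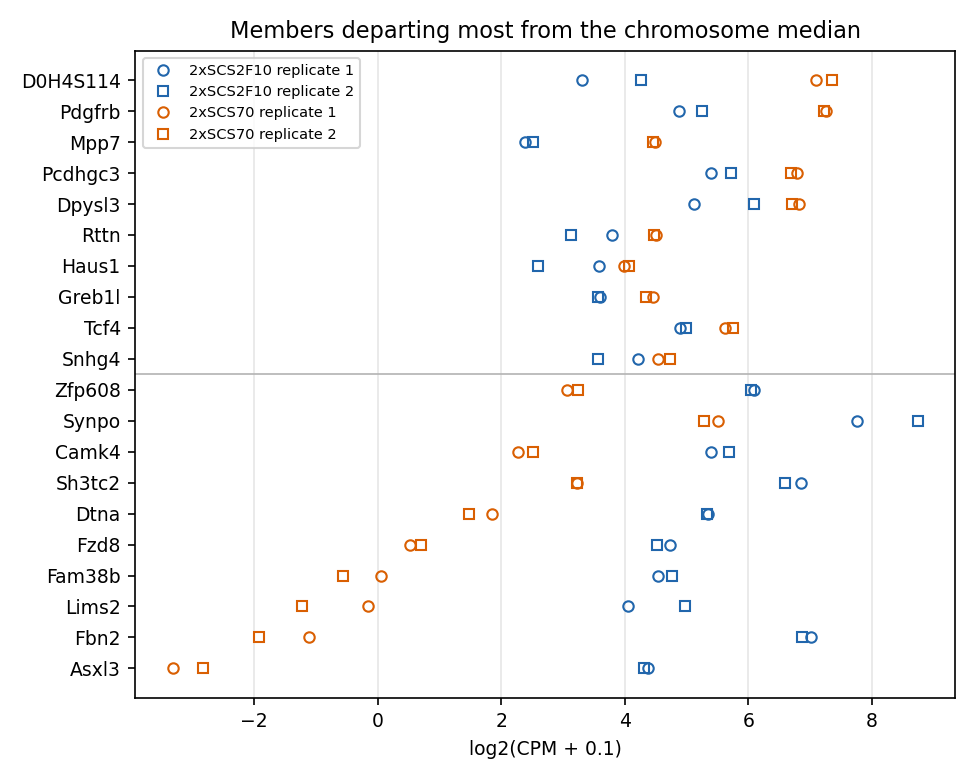
Level of each named departing member on a log2(CPM + 0.1) axis, one symbol per library (blue for 2xSCS2F10, orange for 2xSCS70). Above the grey line stand the 10 members departing most upward and below it the 10 departing most downward. Both orange symbols lie on the same side of both blue ones in all 20 rows, because the selection required it.

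Upward departures were smaller among members of at least 10 CPM, though not below that level, where Onecut2 rose by 6.93 on the log2 scale. Upward departures set members above a chromosome that was otherwise lower. The largest among members of at least 10 CPM was D0H4S114 (now Nrep), which encodes a small neuronal protein also tied to fibroblast behaviour, at chr18:33437019-33464029. It stood at 9.76 and 19.2 CPM in 2xSCS2F10 and 137 and 164 in 2xSCS70, a log2 fold change of 3.38 (SE 0.36, adjusted p = 0.00333). The groups were far apart although the 2xSCS2F10 libraries differed from each other. Pdgfrb, the receptor for PDGF-B on mesenchymal and mural cells, lies at chr18:61045150-61085067. It had 29.4 and 38.2 against 152 and 150 CPM, a log2 fold change of 2.16 (SE 0.17, adjusted p = 0.00149). Mpp7, a scaffold protein of cell junctions, had 5.14 and 5.62 against 22.3 and 21.8 CPM, a log2 fold change of 2.04.

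Pcdhgc3, a gamma-protocadherin, rose from 42.0 and 52.6 to 111 and 103 CPM, although its row overlaps those of the other gamma-protocadherins. Greb1l, a retinoic acid-linked developmental gene, had 11.97 and 11.7 against 21.8 and 20.1 CPM, a rise of 0.83 on the log2 scale. Tcf4, a basic helix-loop-helix factor that pairs with lineage factors, had 29.7 and 31.8 against 49.1 and 54.0 CPM, a rise of 0.74. The libraries of each line agreed closely for these genes. That the lines did not overlap was a condition of their selection.

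The other members of this set were less even. Dpysl3, which shapes the cytoskeleton of growing axons, had 34.7 and 68.1 against 113 and 105 CPM, and Rttn, a centriole protein, had 13.8 and 8.66 against 22.7 and 22.2. Haus1, a subunit of the augmin complex of the spindle, had 11.9 and 5.93 against 15.8 and 16.7, and the noncoding host gene Snhg4, which overlaps Mir1949 and Snora74a, had 18.5 and 11.8 against 23.1 and 26.6. Dpysl3, Haus1 and Snhg4 departed from the chromosome median (departure adjusted p of 0.0226, 0.0393 and 0.0231) but were not called higher than 0 (0.0523, 0.104 and 0.0770). Of the 10 upward departures, 3 held without 2xSCS70 replicate 1, those of D0H4S114, Pdgfrb and Mpp7, with the lost ones at adjusted p from 0.0571 to 0.199. Without its replicate 2 these 3 and Pcdhgc3 held, and the others ranged from 0.0703 to 0.203. That of Haus1 also ended on log2(RPKM + 1), at 0.0552.

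Transcription factor members were called in both directions. Of 18 such genes listed, 15 were tested, and 6 fell, 2 rose and 7 did not pass; the list's median was -0.54, against 0.02 over all tested genes. Of all tested members of the chromosome 38.0% were lower and 6.58% higher, and of all tested genes 21.8% and 18.8%. Gata6, a zinc finger factor of stomach and heart mesoderm, stood at 157 and 145 CPM in 2xSCS2F10 and 39.6 and 35.1 in 2xSCS70, well apart, with a log2 fold change of -2.01 (SE 0.13, adjusted p = 0.00100). It also departed downward. Nr3c1, the glucocorticoid receptor, had 124 and 118 against 64.0 and 70.4 CPM, a log2 fold change of -0.85 that did not depart from the chromosome median (departure adjusted p = 0.0559). Zbtb7c, a zinc finger repressor, fell by 1.62 from 55.6 and 78.8 to 23.1 and 20.7 CPM.

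Zfp521, a zinc finger protein of progenitor cells, fell by 1.29 (53.7 and 41.1 against 17.995 and 20.7 CPM). Zeb1, a repressor of epithelial genes, had 52.4 and 80.7 against 66.5 and 70.1 CPM, with the lines overlapping, and did not pass (log2 fold change 0.04, adjusted p = 0.907). Its sign depended on the library of 2xSCS2F10: it was -0.26 without replicate 1 (adjusted p = 0.0469) and 0.37 without replicate 2 (0.00492). Egr1, an immediate early gene, had 30.1 and 19.7 against 17.2 and 17.0 CPM and did not pass (adjusted p = 0.121), though it did without replicate 2 of 2xSCS2F10. The rises were those of Tcf4 and Onecut2. Without either library of 2xSCS70 3 members of the list fell and 1 rose, Gata6 staying lower both times, and the calls of Nr3c1 (adjusted p = 0.118 and 0.0974) and Tcf4 (0.117 and 0.155) ended. Without replicate 1 or 2 of 2xSCS2F10 the counts were 10 lower and 2 higher, or 9 and 4.

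All 4 TGF-beta pathway members, Smad2, Smad4, Smad7 and Bambi, fell, and none passed the departure test with all 4 libraries. Their own median was -0.83, against -0.46 over tested members and 0.02 over all tested genes. Not passing does not place them on the chromosome median. For Smad7 the departure was -0.49 (departure adjusted p = 0.0671). With either library of 2xSCS2F10 left out, the outcome of the departure test was not the same. Of all tested genes 21.8% were called lower, and of tested members 38.0%. Smad2, which relays activin and TGF-beta signals, had 119 and 118 CPM in 2xSCS2F10 and 70.9 and 74.4 in 2xSCS70, a log2 fold change of -0.71 (SE 0.11, adjusted p = 0.00871). Smad4, the partner common to the pathway, had 97.4 and 105 against 78.0 and 77.1 CPM, the smallest change of the 4 at -0.38 (SE 0.11, adjusted p = 0.0488). The inhibitory Smad7 had 56.9 and 72.2 against 34.2 and 32.9 CPM, and Bambi, a decoy receptor, 2.67 and 2.62 against 1.31 and 1.40.

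The lines did not overlap for any of these 4 genes. None was called without replicate 1 or without replicate 2 of 2xSCS70, with adjusted p-values from 0.123 to 0.322. Smad4 and Bambi were no longer called with a replicate block (0.0966 and 0.0797) or with upper quartile scaling (0.0898 and 0.0530). Smad4 was not called with no filter beyond 20 counts (0.0522) or at a mean of at least 10 CPM (0.0690), and 1 of the 4 was called on log2(RPKM + 1). Apc, the scaffold that degrades beta-catenin in the Wnt pathway, had 150 and 161 against 138 and 134 CPM and did not pass (log2 fold change -0.19, adjusted p = 0.215; 0.0328 without 2xSCS2F10 replicate 1). Its log2 fold change was 0.040 on log2(RPKM + 1).

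Receptors and ligands, by contrast, lay far from the chromosome median on both sides. Of 16 listed, 7 were tested; 3 fell, Hbegf and Nrg2 among them, Pdgfrb and Sema6a rose, all 5 with a departure, and Fgf1 and Csf1r did not pass. The list's median was -1.24. Of all tested genes 21.8% were lower and 18.8% higher, with 15.8% departing upward and 20.8% downward. Of tested members 38.0% were lower and 6.58% higher. Hbegf, an EGF receptor ligand, had 31.8 and 51.8 CPM in 2xSCS2F10 and 15.6 and 12.6 in 2xSCS70, a log2 fold change of -1.57 (SE 0.28, adjusted p = 0.0122). The lines did not overlap.

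Csf1r, the macrophage growth factor receptor and the next gene along from Pdgfrb, had 1.90 and 3.41 CPM in 2xSCS2F10 and 0.980 and 1.27 in 2xSCS70. It lay on the opposite side from Pdgfrb, with a log2 fold change of -1.24 (SE 0.40), and did not pass (adjusted p = 0.0626; 0.0480 with DESeq2). Fgf1, a fibroblast growth factor, had 1.90 and 8.40 against 2.54 and 2.96 CPM, overlapping. Without replicate 1 or replicate 2 of 2xSCS70 only Pdgfrb was still called and none of the list was lower; Hbegf then had 0.102 and 0.129. Without 2xSCS2F10 replicate 1, 5 fell, and the list's median was -0.76 without its replicate 2.

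Matrix members were uneven too. Of 8 listed, 6 were tested, and Fbn2, Lama3 and Ccbe1 fell, with a list median of -1.78. Among all tested genes 21.8% were called lower, and among tested members 38.0%. Lox, the lysyl oxidase that cross-links collagen and elastin, was abundant in both lines. It had 2281 and 4026 CPM in 2xSCS2F10 and 1793 and 1734 in 2xSCS70, without overlap, and did not pass (log2 fold change -0.84, SE 0.31, adjusted p = 0.0827). It passed with DESeq2 (0.0157) and without either library of 2xSCS2F10. Colec12, a scavenger receptor with a collagen-like stalk, had 52.3 and 67.3 against 69.8 and 79.4 CPM and departed upward (departure adjusted p = 0.0240) without being called against 0 (0.190). Lama3, a laminin chain of epithelial basement membranes, had 2.00 and 2.57 against 0.399 and 0.288 CPM. Without replicate 1 or 2 of 2xSCS70 the single call left in the list was that of Fbn2.

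Members of the protocadherin clusters were called in both directions. Of 59 rows, 41 were members and 38 were tested; none of the 15 alpha rows reached 20 counts. Among the tested, 11 fell, 6 rose and 21 did not pass, with departures of 9 upward and 6 downward, and their median was -0.53. Over all tested genes 21.8% were lower and 18.8% higher, with 15.8% departing upward and 20.8% downward, and nothing particular to the clusters is read from these counts. Rows of the gamma cluster share their constant exons and overlap, so how the deposited counting divided those reads bears on each value. Pcdhgb2 had 13.0 and 16.7 CPM in 2xSCS2F10 and 0.399 and 0.247 in 2xSCS70, the lowest log2 fold change of the clusters at -5.50, and Pcdhga10 had 11.0 and 13.1 against 0.290 and 0.329.

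On the other side were Pcdhgc3, given above, and Pcdhb16, with 0.822 and 2.31 against 6.82 and 7.27 CPM (log2 fold change 2.17, adjusted p = 0.0253). The abundant beta members Pcdhb17, Pcdhb22 and Pcdhb19 did not pass. The 2 libraries of 2xSCS2F10 differed from each other in these rows: Pcdhb22 had 6.58 and 18.5 CPM against 12.5 and 15.4. Pcdhgb2, Pcdhga10 and Pcdhb16 were named after their values were seen. The median of the clusters moved from -0.82 without 2xSCS2F10 replicate 1 to 0.29 without its replicate 2. Without either library of 2xSCS70, 3 members fell and none rose. Of the 9 desmosomal cadherin rows 2 were members, Dsg2 and Dsg3, with at most 10 counts in any library, and neither could be tested.

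Cell division members had a median above that of the chromosome, but few passed a test. All 12 listed were tested, and Rttn rose, Cep120, another centriole gene, fell and 10 did not pass. Among all tested genes 18.8% were called higher and 21.8% lower. From the chromosome median 2 departed upward, Rttn and Haus1, and 10 did not depart, where 15.8% of all tested genes departed upward. The list's median was 0.17, and it turned on the libraries of 2xSCS2F10, being 0.92 without replicate 1 and -0.24 without replicate 2. Kif20a, a kinesin of cytokinesis, had 146 and 35.8 CPM in 2xSCS2F10 and 130 and 128 in 2xSCS70. Lmnb1, lamin B1 of the nuclear envelope, had 176 and 63.1 against 140 and 137 CPM, and Cdc25c, a phosphatase of mitotic entry, 24.3 and 4.36 against 24.5 and 24.7.

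In each of these 3 genes, replicate 1 of 2xSCS2F10 lay near or above the 2xSCS70 libraries and replicate 2 lay far below. Cep192, a centrosome scaffold, had 104 and 61.7 against 102 and 102 CPM. Cdc23, of the anaphase-promoting complex, had 74.4 and 61.6 against 62.6 and 60.2. Neither passed with all 4 libraries. Without replicate 1 of 2xSCS2F10, 7 of the list rose and 3 fell, and without its replicate 2, 2 rose and 6 fell. None was called without either library of 2xSCS70.

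Immune members sat above the chromosome median. Of 9 listed, 8 were tested, with a list median of 0.40, and 7 lay above 0; Cd74 rose, Ptpn2 fell, and 5 departed upward, where 15.8% of all tested genes and 14.4% of tested members did. Cd74, the invariant chain of MHC class II, had 1.34 and 1.52 against 3.34 and 3.0002 CPM. Tmem173 (now Sting1), the adaptor that senses cytosolic DNA through cyclic dinucleotides, had 28.6 and 34.1 against 33.9 and 31.9 CPM, overlapping, and departed upward with an adjusted p of 0.0445. Malt1, a protease of NF-kappa-B signalling, had 14.4 and 11.5 against 16.9 and 18.9, and Iigp1, an interferon-induced GTPase, 0.719 and 0.210 against 1.89 and 1.27.

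The phosphatase gene Ptpn2, a brake on JAK-STAT signalling, had 49.1 and 47.4 against 34.8 and 37.2 CPM, a log2 fold change of -0.42 (adjusted p = 0.0453) on the chromosome median. That call ended with a replicate block (0.0914), with upper quartile scaling (0.0900), at a mean of at least 10 CPM (0.0677), on log2(RPKM + 1) (0.574) and without either 2xSCS70 library (0.336 and 0.263). Of the macrophage markers, Cd68 stood at 1.54 and 1.73 CPM in 2xSCS2F10 and 2.90 and 3.90 in 2xSCS70. Ptprc had 6 counts in 2xSCS2F10 replicate 1 and 0 in the other libraries, and Emr1 was at 0 throughout. The part of macrophage markers in the values of the immune list was not tested. None of the list was called or departed without either library of 2xSCS70.

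Departures from the chromosome median were only weakly shared between neighbours. The correlation of departures between adjacent tested members, over 356 pairs with the protocadherin clusters left out, was 0.20, given as a description across genes that share the 4 libraries. The other autosomes ranged from 0.06 to 0.45, with a median of 0.198. Among the 378 members that RefSeq (GRCm38.p6) lists as protein-coding, the 362 tested had a median of -0.48. The 25 tested long noncoding RNAs had -0.13. No median of noncoding RNAs on the other autosomes was set beside it, so whether they share the shift is not read from this value.

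At the count threshold lay members that carry little information. Just inside it, with 20 counts in all, were Gm10536, Pcdhb10, Pcdhgb1 and Slc25a2, and with 22 counts Pabpc2, Pde6a and Psd2. Just outside it, with 18 counts, were 2010001M09Rik, Arsi, Mir143, Nme5 and Pcdhb12. The 22 members that were not tested were too low in the libraries for a fold change to be read, and the medians above leave them out.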

How the data were processed

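Poly(A) RNA libraries (TruSeq mRNA v2, which does not mark strand) of 2 lines, 2 libraries each, were sequenced. Per the submitters' processing notes the authors used TopHat2 2.0.6, Bowtie and HTSeq with mm10 (GRCm38); no source used here gives the annotation that was counted. Beside counts per gene, the deposited files hold RPKM values computed by the authors. The counts were used as deposited, each fragment giving 2.

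Genes were tested with edgeR 4.0.16 (quasi-likelihood, TMM scaling, filterByExpr, Benjamini-Hochberg over all 14496 tested genes, threshold 0.05; biological coefficient of variation 20.4%). CPM values use TMM-scaled library sizes. For library pairs 0.1 was added to CPM. The departure test put each chromosome's median log2 fold change into the offset. The code was tested on simulated data. Alternatives were a replicate block, RLE and upper quartile scaling, other filters, DESeq2 1.42.0, limma 3.58.1 on log2(RPKM + 1), and leaving out each library; with 1 library left in a line, that library is assumed to vary like the other line's.

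Named genes were the 10 largest departures each way (mean of at least 10 CPM, no overlap between lines), the 2 members of highest mean RPKM per 10 Mb window, 15 genes of interest, up to 4 members of highest mean CPM per list, and rows at the count threshold; others were named after their values were seen, and 1 gene that the list rule names is not reported here. The members, lists and tests were chosen with earlier results of these data known. Current names came from RefSeq (GRCm38.p6), which matched 382 members by symbol and 33 by an older symbol.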

Additional observations from a re-analysis of the deposited data

How the results depend on the processing

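The difference of medians between chromosome 18 and the other autosomes was below 0 in every alternative run. It was -0.42 at a mean of at least 10 CPM, -0.25 on log2(RPKM + 1) and between -0.52 and -0.45 with a library left out. At a mean of at least 10 CPM, which leaves 233 members tested, 98 were lower and 10 higher, and 30 departed upward and 38 downward. On log2(RPKM + 1), 79 were lower. Leaving out each library in turn gave 22 to 216 lower, 4 to 53 higher, 4 to 107 departing upward and 15 to 128 departing downward, so the counts depend on the replicates far more than the median does. Of the 22 and 24 lower calls without replicate 1 or replicate 2 of 2xSCS70, all were among the 150. Upper quartile scaling put the median of all genes at 0.11 and that of chromosome 18 at -0.37; log2(RPKM + 1) put them at 0.15 and -0.11. Of 67 tested genes under the naming rule, 11 changed sign in some setting, none of them called with all libraries. Among these, Zeb1 passed in both directions on leaving out 2xSCS2F10 replicate 1 (-0.26) or replicate 2 (0.37), and Apc turned on log2(RPKM + 1) (0.040). Kif20a, Lmnb1, Cep192, Fgf1, Pcdhb22, Cd14 and Tmem173 also changed sign between leaving out these 2 libraries, and Atp5a1 and Cdc23 did on log2(RPKM + 1); the cause was not tested. Replicate numbers are shared between the lines, and deviations of same-numbered libraries had a correlation of 0.043 over 12325 genes. With 2 libraries per line, this value cannot tell whether same-numbered libraries share a batch. With a replicate block, 133 members were lower and 26 higher, 49 departed upward and 66 downward, and the difference of medians was -0.46. With 2 libraries per line, genes of few counts could not be resolved.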

Other observations

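Below the level of 10 CPM used for the largest departures, several members had large departures from the chromosome median; they were picked out after their values were seen. Onecut2, a homeodomain factor of liver and endoderm, stood at 0.154 and 0.105 CPM in 2xSCS2F10 and 15.4 and 16.9 in 2xSCS70 (log2 fold change 6.93, adjusted p = 0.000474). Slc6a7, a proline transporter, had no fragment in 2xSCS2F10 and 35 in 2xSCS70, at least 4.31-fold higher on the mean of the libraries against a floor of 3 fragments per library. Celf4, an RNA-binding protein gene, rose from 0.103 and 0.210 to 1.31 and 0.863 CPM. Trim36, a ubiquitin ligase gene, rose from 0.925 and 0.787 to 3.88 and 3.95.

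In the other direction stood Mkx, a tendon homeodomain factor, with 397 fragments in 2xSCS2F10 and 2 in 2xSCS70, a ratio of 267 (exact 95% interval 73.5 to 2216, counting error only). Pmaip1, which encodes the p53 target Noxa, had 347 and 2 fragments, a ratio of 234 (64.2 to 1938). Myo5b, a motor of recycling endosomes, had 284 and 3 fragments, a ratio of 128 (43.2 to 622). Spry4, a feedback inhibitor of receptor kinase signalling, fell from 11.2 and 15.6 to 1.09 and 1.52 CPM (adjusted p = 0.00222). Tslp, an epithelial cytokine gene, fell from 2.98 and 0.997 to 0.109 and 0.123.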
